A study of Mus musculus with 29 samples.

Results

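RNA of the cleared brain homogenate, called the input, was compared with RNA of whole brain tissue from the same 5 Cx3cr1-NuTRAP mice (animals 192, 194, 209, 210 and 277). These are 10 of the 29 libraries of the series, taken by their labels as the input and the whole tissue library of every animal that has both. All 10 come from Cx3cr1-Cre/Ert2+; NuTRAP+ mice, in which tamoxifen-inducible Cre under the Cx3cr1 promoter switches on a ribosome tag and a nuclear tag in microglia. Tamoxifen was given to every mouse, at an age of about 3 months, so genotype, treatment and animals are common to the groups. The animals include males and females.

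For the input, a hemisected brain was dounced in a buffer with 1% NP-40 and cycloheximide and spun at 12000 x g for 10 minutes, and 100 microlitres of the supernatant was kept ahead of any pull-down. For whole tissue, RNA was isolated conventionally from brain. The labels title those libraries "Slice" and do not say which piece of the brain was used, so the piece of brain and the clearing step differ together and cannot be told apart.

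A non-ionic detergent opens the plasma membrane and frees cytoplasmic ribosomes, whereas intact nuclei, vessel fragments, compact myelin and unbroken debris are heavy and go into the pellet. Cycloheximide holds ribosomes on their messages, so such a supernatant is prepared to hold ribosome-bound and free cytoplasmic RNA. What each fraction held was not measured apart from its RNA. Capillaries of the brain are tubes of endothelial cells wrapped in basement membrane and pericytes, and are known to survive gentle douncing as visible fragments. In bulk RNA, fewer cells of a type and less RNA per cell cannot be told apart.

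Total counts were 18095544 to 26857890 in the 5 inputs and 18993854 to 25026591 in 4 of the whole tissue libraries, but 4260795 in the whole tissue of animal 210. That library stood apart in other ways. It held Xist, the RNA of the inactive X chromosome, at 65.2 CPM (a gene's count over the library total, times 1000000) together with Ddx3y, a Y-linked gene, at 77.9 CPM. Each other library had one of these transcripts near 0, and the input of animal 210 had Xist at 1.32 CPM. Each library was placed on a line over 532 genes that passed the count filter with all 10 libraries. These genes were called, and changed more than 2-fold, when animal 210 was left out (edgeR adjusted p below 0.05). The line ran from the mean input of the other animals at 0 to their mean whole tissue at 1. Those animals set both the genes and the ends of the line, so their own places near 0 and 1 were set in advance. The whole tissue of animal 210 lay at 0.32, its input at 0.111, the other inputs at -0.062 to 0.058 and the other whole tissue libraries at 0.973 to 1.053. The library may hold RNA of more than 1 sample, which was not tested. It was kept because its label names it, so values over all 10 libraries include it. Results are given with and without animal 210, and for single genes the value without it is given where it bears on the call or the size. Over the 195 named genes, leaving out animal 210 ended 2 calls, brought 20 more genes past the threshold and turned the direction of 1.

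**Figure D1:**
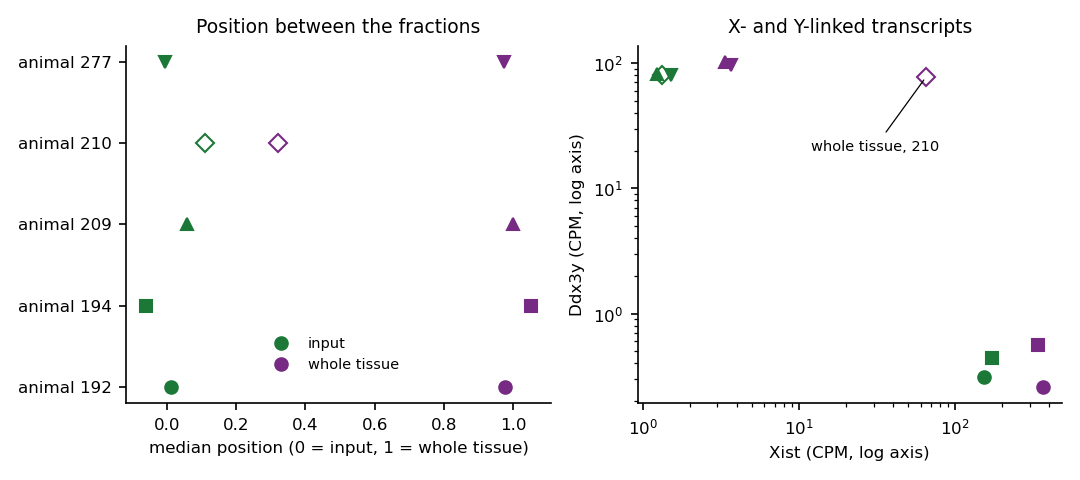
Left, median position of each library on the axis from input (0) to whole tissue (1), for the 5 animals, with the ends set by the animals other than 210. Right, Xist against Ddx3y in CPM on log axes, where the whole tissue of animal 210 (65.2 and 77.9 CPM) holds both transcripts and every other library holds mainly one.

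Across the transcriptome, 2310 of the 13648 genes tested were higher in input (16.9%) and 1968 were lower (14.4%), 31.3% in either direction. The test was the quasi-likelihood test of edgeR across all genes, called at a Benjamini-Hochberg adjusted p below 0.05, and every adjusted p in this text comes from it. Of these, 210 were more than 2-fold higher (1.54% of genes tested) and 155 more than 2-fold lower (1.14%), which became 315 and 323 without animal 210 and 132 and 162 without animal 209. Without animal 210, the counts were 2802 higher (20.1%) and 2752 lower (19.7%) of 13951, or 39.8% in either direction. Of the calls made with all 10 libraries, 2152 of the higher and 1875 of the lower were made without animal 210 too, and 0 had the opposite sign. Those fits share all libraries but those of animal 210, so their overlap was largely set in advance. With the animal as a block, 1782 genes were higher and 1309 lower. The higher count went down to 1441, 1249 and 1490 without animal 194, 209 and 277, and the lower count to 1262 and 1185 without animal 194 and 209. The pairs 192 and 194 and 209 and 277, fitted apart, called 1135 genes higher and 1013 lower in both, and 6 and 17 genes with opposite signs. Those pairs differ in sex by their transcripts (Xist at 154 and 172 CPM in the inputs of 192 and 194, Ddx3y at 80.5 to 82.2 CPM in those of 209, 210 and 277), so sex and other differences between the animals cannot be told apart. The median log2 fold change over all genes tested was 0.00.

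Endothelial genes were lower in input almost throughout. Of 32 endothelial genes tested, 30 were lower in input and 0 higher (14.4% of all genes tested were lower), with a median log2 fold change of -1.12 against 0.00 over all genes. Without animal 210 it was 32 of 33 lower and 1 higher, with a median of -1.21. Leaving out any animal gave 29 to 32 lower. The summed level of the list was 448 to 497 CPM in the inputs, 1000 to 1107 CPM in 4 whole tissue libraries and 643 CPM in the whole tissue of animal 210.

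The 3 endothelial markers all fell. Per-library values are given here in the order of animals 192, 194, 209, 210 and 277. Flt1, a receptor for vascular endothelial growth factor (Entrez 14254, mm10 chr5:147562196-147725988), measured 18.6, 21.6, 24.3, 23.0 and 20.6 CPM in input and 83.6, 75.0, 65.7, 32.6 and 66.7 CPM in whole tissue. Every input lay below every whole tissue library, the lowest of which was that of animal 210. The log2 fold change of Flt1 was -1.61 ± 0.19 (SE, adjusted p = 0.00018), and -1.78 without animal 210.

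Pecam1, an adhesion molecule of endothelial junctions (Entrez 18613, chr11:106654218-106715281), measured 13.7, 11.8, 13.8, 14.5 and 10.4 CPM in input and 34.0, 29.9, 36.0, 21.6 and 32.8 CPM in whole tissue. The groups did not overlap, and the log2 fold change was -1.29 ± 0.12 (adjusted p = 4.3e-05), or -1.42 without animal 210. Cldn5, the main claudin of the tight junctions that seal brain capillaries (Entrez 12741, chr16:18776847-18778262), measured 26.9, 28.5, 31.9, 27.0 and 27.9 CPM in input and 58.1, 49.1, 64.5, 38.5 and 60.4 CPM in whole tissue. Means were 28.4 ± 2.05 CPM and 54.1 ± 10.4 CPM (SD, n = 5), a log2 fold change of -0.95 ± 0.11 (adjusted p = 0.00013). The CPM ranges of input and whole tissue were apart for 23 of the 32 endothelial genes tested, against 18.6% of all genes tested.

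**Figure D2:**
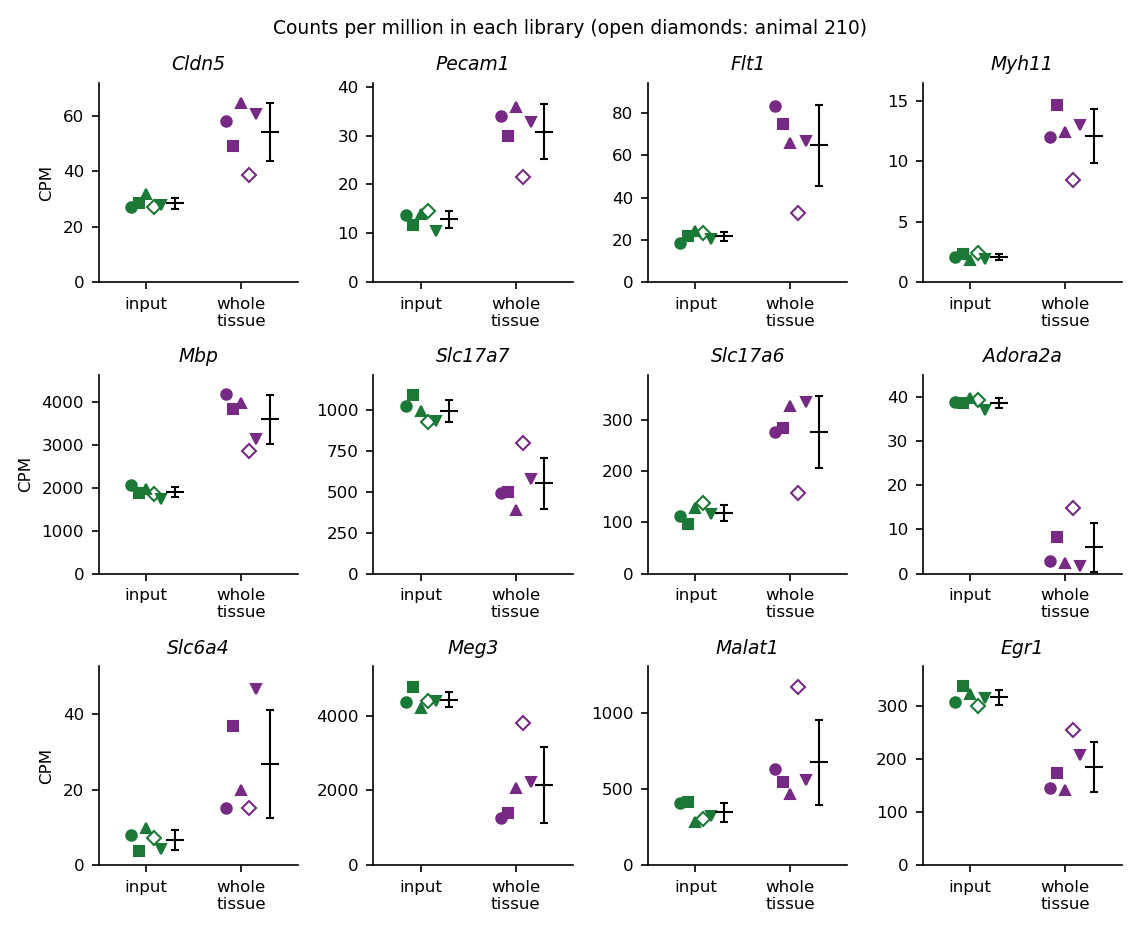
CPM of 12 genes in each library (circle 192, square 194, upward triangle 209, open diamond 210, downward triangle 277), with mean ± SD of 5 beside the points. The first 5 panels, Slc17a6, Slc6a4 and Malat1 are lower in input, Slc17a7, Adora2a, Meg3 and Egr1 are higher, and the open diamond of whole tissue lies nearest the inputs in Flt1, Pecam1, Cldn5 and Meg3.

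Transporters of the blood-brain barrier fell with the junction genes but by different amounts. Abcb1a, a drug efflux pump, had a log2 fold change of -1.61 ± 0.14 (adjusted p = 2.8e-05), the same as Flt1 and also among the 10 largest falls. Slc2a1, the glucose transporter of the barrier that astrocytes also make, fell by 0.81 on the log2 scale and Slco1c1, a thyroid hormone transporter that astrocytes share too, fell by 0.73. The members that did not pass were Ramp2, at -0.26 with an adjusted p of 0.14, and Ctla2a, at 0.28 with an adjusted p of 0.31. Without animal 210, Ramp2 passed as lower (-0.33, adjusted p = 0.043) and Ctla2a as higher (0.48, adjusted p = 0.0083). Both were named after their values were seen.

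Mural cells, the pericytes and smooth muscle around those tubes, were lower too. Of 16 tested genes 11 were lower and 0 higher, with a median of -0.53, and 11 of 18 were lower without animal 210. The count was 7 with the animal as a block, and 7 without animal 194, 209 or 277. Myh11, the myosin heavy chain of smooth muscle, had the largest fall of any gene that met the naming rule. It measured 2.04, 2.32, 1.82, 2.38 and 1.90 CPM in input and 12.0, 14.6, 12.4, 8.45 and 13 CPM in whole tissue, with every input at least 3 times lower than every whole tissue library. Its log2 fold change was -2.56 ± 0.15 (adjusted p = 2.5e-06), and -2.69 without animal 210.

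Pericyte genes ranged more widely. Rgs5, a regulator of G protein signalling in pericytes, fell by 1.29 on the log2 scale (adjusted p = 0.00014). Vtn, vitronectin, which brain pericytes make, measured 70.4 to 85.7 CPM in input and 60.5 to 88.0 CPM in whole tissue, with a log2 fold change of 0.02 ± 0.09 (adjusted p = 0.90). Pdgfrb, the receptor that recruits pericytes, fell by 0.22 (adjusted p = 0.047), a call lost with the block (adjusted p = 0.10) and without animal 192, 194 or 277 (adjusted p up to 0.21). The smooth muscle actin Acta2 is listed at 0 in all 10 libraries.

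Genes of the basement membrane, the protein sheet on which vessels sit, were split. Of 16 tested, 7 were lower and 1 higher, with a median of -0.09. The counts were the same without animal 210, and 4 lower without animal 192 or 209. Sparc, a matrix protein that glia and endothelium secrete, measured 698, 588, 708, 733 and 665 CPM in input and 1065, 1137, 1349, 1280 and 1180 CPM in whole tissue. The ranges were far apart, with a log2 fold change of -0.82 ± 0.07 (adjusted p = 2.8e-05). Col4a2, a chain of collagen IV, fell by 0.55 (adjusted p = 0.0028), whereas Agrn, the proteoglycan agrin, had a log2 fold change of -0.11 (adjusted p = 0.30).

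Endothelial and mural genes supplied 24 of the 155 genes that were more than 2-fold lower (15.5%), and 50.0% of the 48 tested members of those lists changed that much. Without animal 210 it was 31 of 323 (9.60%), and 60.8% of the lists' 51 tested members.

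Genes of the ventricle lining were lower in input in part, and those of the meninges higher in part. Ependymal genes, of the ciliated cells that line the ventricles, were lower in 6 of 10 tested and higher in 0, with a median of -0.75, and lower in 10 of 13 without animal 210 (median -1.11). Foxj1, the master factor of motile cilia, fell by 0.76 ± 0.12 on the log2 scale (adjusted p = 0.00046) and Ccdc153, a ciliary protein, by 1.30 ± 0.22 (adjusted p = 0.001). Fibroblast genes of the meninges were higher in 7 of 17 and lower in 1, with a median of 0.37 and the same counts without animal 210, and 0 were lower without animal 277. Igf2, a growth factor of meninges and choroid plexus, rose by 0.66 ± 0.14 (adjusted p = 0.0042) and Igfbp2, which binds it, by 0.45 ± 0.10 (adjusted p = 0.0037). Choroid plexus genes, of the tissue that secretes cerebrospinal fluid, were lower in 0 of 14 and higher in 2, a share near the 16.9% of all genes tested. That count was 0 without animal 192, 194, 209 or 210 and 7 without animal 277. Ttr, transthyretin, the most abundant of them, measured 906, 758, 910, 768 and 814 CPM in input and 350, 225, 172, 764 and 892 CPM in whole tissue. The inputs were even and the whole tissue libraries spread over a 5-fold range, and the log2 fold change of 0.80 ± 0.45 did not pass (adjusted p = 0.21).

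Of 4 red cell genes tested, edgeR called 0 in either direction, as did DESeq2, and 0 had an unadjusted p under 0.05. Hba-a1, an alpha globin, measured 107, 85.7, 143, 201 and 162 CPM in input and 60.5, 65.8, 138, 145 and 210 CPM in whole tissue, and was lowest in animals 192 and 194 in both preparations. Its reads may be shared with Hba-a2, a near-identical copy, so their split is uncertain.

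Genes of oligodendrocytes and astrocytes were lower more often than higher. All 16 genes of compact myelin tested were lower in input (15 of 16 without animal 210), with a median of -0.41, and leaving out an animal gave 11 to 15. Mbp, myelin basic protein, whose message is carried into the myelin sheath, measured 2069, 1869, 1969, 1845 and 1745 CPM in input and 4170, 3834, 3982, 2847 and 3135 CPM in whole tissue. All inputs lay below all whole tissue libraries, those of animals 210 and 277 being the lowest. The log2 fold change was -0.92 ± 0.10 (adjusted p = 9.3e-05). Cnp, a myelin enzyme, fell by 0.33 (adjusted p = 0.0042). Trf, transferrin of oligodendrocytes, also fell by 0.33 (adjusted p = 0.026), a call lost with the block (adjusted p = 0.061) and without animal 192, 194 or 209 (adjusted p up to 0.12). In the longer oligodendrocyte list that the study took from cell sorting, 84 of 193 genes were lower and 11 higher (median -0.22), and 102 and 15 of 194 without animal 210. Without animal 192, 194 or 209 the lower count was 50, 43 and 43, and the higher count 7 without animal 194 or 209.

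Genes of oligodendrocyte precursors gave 4 lower and 3 higher of 14 (median -0.32), and 8 lower and 3 higher without animal 210. All genes tested gave 14.4% lower and 16.9% higher, and 19.7% and 20.1% without animal 210. The higher count was 0 without animal 192 or 277 and 1 without animal 194 or 209. Lhfpl3, a membrane protein of these cells, fell by 0.42 (adjusted p = 0.008), and that call was lost without animal 194 (all 4 lower calls were). Pdgfra, their defining growth factor receptor, had a log2 fold change of -0.34 ± 0.13 (adjusted p = 0.056), and -0.45 without animal 210 (adjusted p = 0.0027).

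The study's astrocyte list gave 48 lower and 15 higher of 138 (median -0.13), and 56 and 21 without animal 210. Its higher count was 8, 9, 8 and 8 without animal 192, 194, 209 and 277. Among 13 genes of astrocyte membranes and processes, 6 were lower and 0 higher, or 8 and 1 without animal 210. Slc6a11, a GABA transporter of astrocytes, measured 363, 338, 390, 415 and 365 CPM in input and 646, 776, 805, 461 and 721 CPM in whole tissue. The ranges did not overlap, and the log2 fold change was -0.87 ± 0.12 (adjusted p = 0.00042). Sparcl1, an abundant secreted astrocyte protein that vessels also make, fell by 0.37 ± 0.05 (adjusted p = 0.00025). The glutamate transporter Slc1a2 had a log2 fold change of -0.13 ± 0.05 (adjusted p = 0.074) and Slc1a3, the other one of astrocytes, of 0.23 ± 0.09 (adjusted p = 0.058). Without animal 210, Slc1a2 passed as lower (-0.15, adjusted p = 0.045) and Slc1a3 as higher (0.29, adjusted p = 0.0031).

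Microglial genes were near level. Of 16 homeostatic genes, 1 was higher and 0 lower, with a median of -0.03, and 3 were higher without animal 210. Csf1r, the receptor on which microglia depend, measured 86.3, 79.6, 86.2, 84.0 and 86.7 CPM in input and 71.2, 75.3, 71.6, 104 and 76.1 CPM in whole tissue. The inputs lay above the other 4 whole tissue libraries and below that of animal 210, and the log2 fold change was 0.11 ± 0.09 (adjusted p = 0.39), or 0.20 without animal 210 (adjusted p = 0.010). The study's microglial list gave 31 higher (13.6%) and 17 lower (7.46%) of 228 (median 0.05), where all genes gave 16.9% and 14.4%. Without animal 210 it was 43 (18.4%) and 19 (8.12%) of 234, where all genes gave 20.1% and 19.7%. Its higher count was 17, 14, 12 and 16 without animal 192, 194, 209 and 277, and its lower count 9 without animal 209. Sirpa, an inhibitory receptor that neurons also carry, rose by 0.44 ± 0.06 (adjusted p = 0.0003) and Lgmn, a lysosomal protease, fell by 0.28 ± 0.07 (adjusted p = 0.0068). Of 5 border macrophage genes tested, edgeR and DESeq2 called 0 in either direction and 0 had an unadjusted p under 0.05. Mrc1, the mannose receptor of these cells, measured 4.58 to 7.53 CPM in input and 4.30 to 6.78 CPM in whole tissue.

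A single lymphocyte-list gene was called. Cd4, a T cell co-receptor, measured 7.96, 10.0, 6.67, 8.02 and 6.64 CPM in input and 0.732, 0.599, 0.616, 2.11 and 0.632 CPM in whole tissue, with a log2 fold change of 3.39 ± 0.26 (adjusted p = 2.4e-05). Every whole tissue library held under 20 counts of Cd4. It passed the count filter only through the inputs, where it is high, so the size of its rise is uncertain. The 3 genes of the CD3 complex, which T cells carry with it, were at or under 0.844 CPM in all 10 libraries, below the test's filter. The other member of the list tested, the kinase Lck, had a log2 fold change of 0.03 (adjusted p = 0.95).

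Neuronal genes changed in both directions. In the study's neuronal list, 32 of 99 were higher and 30 lower, and 34 and 38 without animal 210. The lower count was 19 with the animal as a block and 19 without animal 194, and the higher count 19 and 20 without animal 209 and 277. Among 10 genes of excitatory neurons, 6 were higher and 2 lower with and without animal 210, but 3 were higher without animal 192, 194 or 209, and 1 was lower with the block or without animal 192, 194 or 277. Their vesicular glutamate transporters went opposite ways. Slc17a7, the form of cortex, hippocampus and cerebellum, measured 1029, 1095, 996, 927 and 935 CPM in input and 495, 497, 389, 801 and 583 CPM in whole tissue, a log2 fold change of 0.85 ± 0.15 (adjusted p = 0.002) and 1.04 without animal 210. Slc17a6, the form of thalamus, hypothalamus and brainstem, measured 112, 96.4, 127, 138 and 116 CPM in input and 277, 285, 326, 158 and 335 CPM in whole tissue. Its log2 fold change was -1.23 ± 0.17 (adjusted p = 0.00054), and -1.44 without animal 210. Neither gene overlapped between groups, and whole tissue 210 was the nearest to the inputs in both.

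Among 11 genes of inhibitory neurons, 4 were higher and 1 lower, or 5 and 2 without animal 210. The higher count was 2 without animal 192, 209 or 277. Gad1, a GABA-synthesizing enzyme, rose by 0.48 ± 0.06 (adjusted p = 0.00012), whereas Slc32a1, the vesicular GABA transporter, had a log2 fold change of -0.05 (adjusted p = 0.67) and Gad2, the other synthesizing enzyme, of -0.25 (adjusted p = 0.080). Gad2 passed as lower without animal 210 (-0.35, adjusted p = 0.014).

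Genes that mark brain regions divided. Those of striatum, olfactory bulb, cerebellum, cortex and hippocampus were partly or mostly higher in input. Those of monoamine nuclei, hypothalamus, thalamus and hindbrain were partly or mostly lower. Striatal genes, mainly those of medium spiny neurons, were higher in 10 of 11 and lower in 0, with a median of 1.48 (1.66 without animal 210). Of those called higher, Gpr6 passed the count filter only through the inputs. Adora2a, an adenosine receptor of striatal neurons of the indirect pathway, had the largest rise among genes with over 20 counts in all 10 libraries and 1 direction in all 5 animals. It measured 38.7, 38.6, 39.7, 39.2 and 36.9 CPM in input and 2.84, 8.15, 2.38, 14.8 and 1.69 CPM in whole tissue. The inputs differed by less than 3 CPM among themselves, the whole tissue libraries by over 8-fold, and the highest 2 of the latter were those of animals 210 and 194. The log2 fold change was 3.02 ± 0.45 (adjusted p = 0.0012), and 3.31 without animal 210.

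Pde10a, a phosphodiesterase of striatum, rose by 1.28 ± 0.12 (adjusted p = 4.3e-05), Drd1a, the dopamine D1 receptor, by 1.76 ± 0.35 (adjusted p = 0.0046) and Penk, proenkephalin, by 1.07 ± 0.24 (adjusted p = 0.0087). Ppp1r1b, the dopamine-regulated phosphatase inhibitor DARPP-32, had a log2 fold change of 1.5 ± 0.33 (adjusted p = 0.0091), a call lost without animal 209 (adjusted p = 0.052).

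Olfactory bulb genes were higher in 6 of 7 (median 1.87), with the same count without animal 210 and 4 without animal 192, 209 or 277. Of those called higher, Tbx21 and Omp passed the count filter only through the inputs, where they are high. Cdhr1, a cadherin of mitral and tufted cells, measured 40.9, 47.9, 46.1, 49.5 and 47.7 CPM in input and 6.50, 20.1, 8.72, 20.9 and 9.16 CPM in whole tissue, and rose by 1.92 ± 0.29 (adjusted p = 0.001). The higher whole tissue values were again those of animals 194 and 210. Doc2g, a bulb protein related to the synaptotagmins, rose by 1.87 ± 0.38 (adjusted p = 0.0046). Calb2, the calcium-binding protein calretinin, which many other regions make, did not differ detectably (-0.09 ± 0.05, adjusted p = 0.20).

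Cerebellar genes were higher in 6 of 13 (8 of 13 without animal 210), with a median of 1.45 that hid a wide spread between animals. The median of log2 CPM ratios was 0.81, 3.61, 1.44, 0.13 and 2.18 in the 5 animals. Cbln3, a secreted protein of granule cells, measured 276, 267, 306, 310 and 315 CPM in input and 135, 3.00, 75.4, 275 and 32.9 CPM in whole tissue. The inputs were even and the whole tissue libraries were not, and its log2 fold change of 1.57 ± 0.85 did not pass (adjusted p = 0.20). Zic1, a transcription factor of granule cells, rose by 0.63 ± 0.11 (adjusted p = 0.0014). Genes of cortex and hippocampus were higher in 8 of 11 and lower in 0, with a median of 0.55. The count was 7 without animal 210 and 5 without animal 192, 194 or 209. Neurod2, a factor of excitatory cortical neurons, rose by 1.01 ± 0.21 (adjusted p = 0.0051) and Wfs1, a protein of the endoplasmic reticulum rich in hippocampal field CA1, by 0.55 ± 0.07 (adjusted p = 0.0002).

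The monoamine nuclei, hypothalamus, thalamus and hindbrain ran the other way. Monoamine nuclei gave 6 lower and 0 higher of 10 (median -1.30), 7 of 11 lower without animal 210, and 4 lower without animal 194 or 209. Slc6a4, the serotonin transporter of the raphe, measured 8.04, 3.70, 9.79, 7.18 and 4.25 CPM in input and 15.0, 36.9, 19.99, 15.0 and 46.8 CPM in whole tissue. The groups did not overlap, animals 194 and 277 having both the lowest inputs and the highest whole tissue values. The log2 fold change was -2.04 ± 0.39 (adjusted p = 0.0036), and adjusted p = 0.075 with the animal as a block and animal 210 left out. Ddc, the decarboxylase that makes dopamine and serotonin, fell by 1.26 ± 0.20 (adjusted p = 0.0008) and Slc18a2, the vesicular monoamine transporter, by 1.42 ± 0.22 (adjusted p = 0.00093). Tph2, the serotonin-synthesizing enzyme of neurons, fell by 1.85 ± 0.51 (adjusted p = 0.023), a call lost with the block (adjusted p = 0.13) and without animal 194, 209 or 277 (adjusted p up to 0.089).

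Hypothalamic genes were lower in 7 of 12 and higher in 0 (median -1.16), and lower in 10 of 14 without animal 210 (median -1.64). Baiap3, a protein of dense-core vesicle release, measured 60.0, 56.4, 73.9, 71.9 and 58.9 CPM in input and 145, 221, 224, 95.05 and 236 CPM in whole tissue. It fell by 1.53 ± 0.22 (adjusted p = 0.00085), and Hap1, a trafficking protein that binds huntingtin, fell by 0.67 ± 0.11 (adjusted p = 0.00098). Pmch, the precursor of melanin-concentrating hormone, had a log2 fold change of -1.13 (adjusted p = 0.10). Thalamic genes were lower in 5 of 10 and higher in 0 (median -0.36), with the same counts without animal 210 and 3 lower without animal 277. Prkcd and Tnnt1 of that list had log2 fold changes of 0.26 and 0.41 and did not pass (adjusted p = 0.40 and 0.076). Tnnt1 was named after its values were seen. Hindbrain genes were lower in 2 of 7 and higher in 0 (median -1.28), lower in 5 of 9 without animal 210, and lower in 1 and 6 without animal 209 and 277. Glra1, the adult glycine receptor subunit of brainstem and spinal cord, measured 7.201, 4.31, 8.30, 8.70 and 8.68 CPM in input and 51.6, 25.8, 27.0, 20.4 and 14.8 CPM in whole tissue, and fell by 1.93 ± 0.33 (adjusted p = 0.0017).

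Pomc, which both hypothalamus and pituitary make, depended on animal 210 alone. It measured 3.87, 2.76, 6.11, 311 and 7.17 CPM in input and 13.7, 12.47, 14.9, 27.0 and 19.8 CPM in whole tissue, so its log2 fold change was 2.00 ± 1.43 (adjusted p = 0.33) with all animals and -1.59 (adjusted p = 0.001) without 210. Prolactin, Prl, a hormone of the pituitary, measured 281 CPM in the input of animal 210 and 0.356 to 6.33 CPM in the other inputs. The 10 pituitary and pineal genes summed to 363.3 CPM in that input and to 1.3 to 10.2 CPM in the other inputs. None of the 10 passed the count filter of the test.

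**Figure D3:**
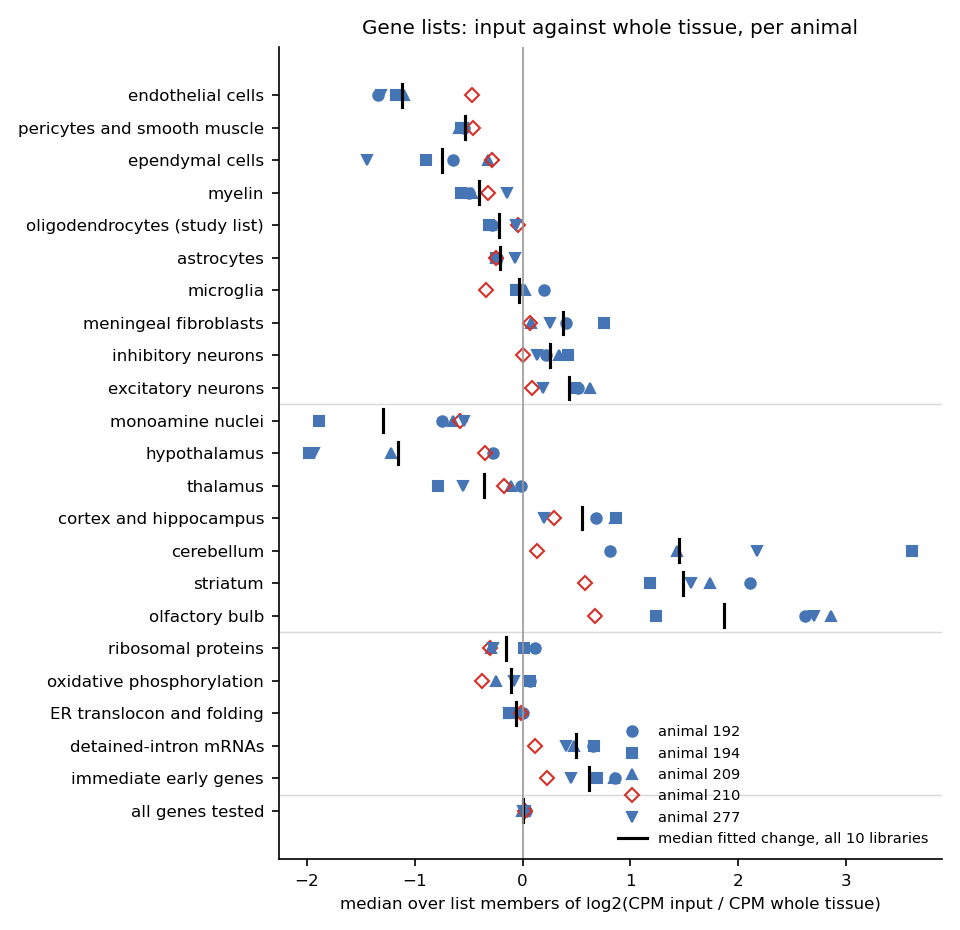
Median over list members of the log2 ratio of CPM in input to CPM in whole tissue, 1 symbol per animal (animal 210 open), with the median fitted log2 fold change of all 10 libraries as a black bar. Endothelial and mural lists lie left of 0 and detained-intron and immediate early lists right of 0 in every animal, the region lists split into both sides, and animal 210 lies nearest to 0 for endothelial cells, striatum and cerebellum.

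By compartment, RNAs known to stay in the nucleus went in both directions. Of 17 nuclear non-coding RNAs, 6 were higher and 1 lower (median 0.22), and 8 and 1 without animal 210. C130071C03Rik, called higher, passed the count filter only through the inputs. The higher count was 3 without animal 194, 209 or 277. Meg3, an imprinted long non-coding RNA of neurons, had the largest rise in mean CPM among genes past the threshold. It measured 4360, 4751, 4207, 4381 and 4388 CPM in input and 1263, 1393, 2049, 3792 and 2233 CPM in whole tissue. The groups did not overlap, and whole tissue 210 was close to the inputs. The log2 fold change was 1.05 ± 0.27 (adjusted p = 0.018), 1.35 without animal 210 (adjusted p = 0.0013), and the call was lost without animal 194, 209 or 277 (adjusted p up to 0.078). Snhg11, a neuronal non-coding RNA, rose by 1.00 ± 0.27 (adjusted p = 0.022), with the call lost without the same animals (adjusted p up to 0.084). Rian and Peg13, both imprinted non-coding RNAs, had log2 fold changes of 0.05 (adjusted p = 0.62) and -0.01 (adjusted p = 0.93).

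The RNAs of nuclear speckles and paraspeckles and Xist, all described here after their values were seen, parted. Malat1, of the speckles, measured 408, 415, 280, 303 and 320 CPM in input and 633, 546, 466, 1166 and 562 CPM in whole tissue, and fell by 0.96 ± 0.25 (adjusted p = 0.015), or 0.64 without animal 210. Neat1, the scaffold of paraspeckles, measured 192 to 237 CPM in input and 111 to 170 CPM in whole tissue, and rose by 0.61 ± 0.10 (adjusted p = 0.00058). Xist, which stays on the inactive X chromosome and was not a member of the list, measured 154 and 172 CPM in the inputs of animals 192 and 194 and 363 and 340 CPM in their whole tissue. In those animals alone it fell by 1.13 ± 0.07 (adjusted p = 5.4e-06), and over all 10 libraries, which mix the sexes, its log2 fold change was -1.28 ± 1.72 (adjusted p = 0.61).

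Messages known to be held in the nucleus with detained introns were higher in most cases. Of 23 tested, 18 were higher and 0 lower (median 0.50), and 19 were higher without animal 210. The count was 10 and 11 without animal 194 and 209. Ddx5, an RNA helicase, measured 906, 921, 933, 953 and 976 CPM in input and 662, 677, 674, 838 and 744 CPM in whole tissue, and rose by 0.38 ± 0.06 (adjusted p = 0.00075). Ogt, the enzyme that adds O-GlcNAc to proteins, rose by 0.53 ± 0.07 (adjusted p = 0.00022), while Son, a speckle protein, had a log2 fold change of 0.11 (adjusted p = 0.12). Gene counts do not separate spliced from unspliced reads, so whether introns were present was not measured.

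The gene ontology term for the nucleus, which annotates proteins and not where a message sits, gave 875 higher (21.1%) and 481 lower (11.6%) of 4153 genes, or 1045 and 678 of 4220 without animal 210, with 309 lower under the block. Zinc finger genes named Zfp, many of them repressors with a KRAB domain, were higher in 61 of 309 (19.7%, near the 16.9% of all genes) and lower in 12 (3.88% against 14.4%), with a median of 0.09. Without animal 210 it was 73 of 314 (23.2% against 20.1%) and 20 (6.37% against 19.7%). The higher count was 35, 30, 24 and 33 without animal 192, 194, 209 and 277, and the lower count 6 and 7 without animal 194 and 209. Their most abundant member called higher, Zfp365, a protein of centrosome and genome stability, rose by 0.25 (adjusted p = 0.019), a call lost without animal 192, 194 or 209 (adjusted p up to 0.094).

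Messages of the translation and energy machinery gave small and mostly negative log2 fold changes that differed between the animals. Cytosolic ribosomal protein genes were lower in 22 of 78 and higher in 0, with a median of -0.16 (14.4% of all genes tested were lower). The lower count was 20 without animal 210, 6 with the animal as a block and 5, 6 and 39 without animal 209, 277 and 192. The median log2 ratio was 0.11 and 0.01 in animals 192 and 194 and -0.29, -0.30 and -0.28 in animals 209, 210 and 277, a split that coincides with sex. Rpsa, a protein of the small subunit, fell by 0.30 ± 0.06 (adjusted p = 0.0033) and Rpl4, of the large subunit, had a log2 fold change of -0.12 (adjusted p = 0.081), or -0.15 without animal 210 (adjusted p = 0.031). Many of these genes have processed pseudogenes that can share their reads. The elongation factors Eef2 and Eef1a1 fell by 0.27 (adjusted p = 0.003) and 0.17 (adjusted p = 0.012), the second call being lost without animal 194 (adjusted p = 0.054).

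Nuclear-encoded genes of oxidative phosphorylation were lower in 13 of 83 and higher in 0 (median -0.11), a share near that of all genes tested. The lower count was 11 without animal 210, with 2 then higher, 3 with the animal as a block, and 1 and 5 without animal 209 and 277. Atp5b, the catalytic beta subunit of ATP synthase, measured 1328, 1287, 1232, 1264 and 1261 CPM in input and 1456, 1356, 1494, 1342 and 1386 CPM in whole tissue. The groups did not overlap, yet the difference was small, with a log2 fold change of -0.14 ± 0.05 (adjusted p = 0.029). The call was lost with the block (adjusted p = 0.079) and without animal 192, 194, 209 or 277 (adjusted p up to 0.12). Mitochondrial ribosome genes were lower in 4 of 76 and higher in 0, a lower share under the 14.4% of all genes tested. They were lower in 0 and 2 without animal 209 and 277. The table holds no rows for genes of the mitochondrial genome. Genes of the endoplasmic reticulum translocon and of folding were lower in 4 of 26 and higher in 2, a lower share near the 14.4% of all genes tested. Without animal 210 the counts were 9 and 2, a lower share above the 19.7% of all genes then tested. Lower calls numbered 2 with the animal as a block, and 2, 2 and 1 without animal 194, 209 and 277. Canx, the chaperone calnexin, fell by 0.20 ± 0.05 (adjusted p = 0.01), a call lost without animal 194 (adjusted p = 0.062), and Hspa5, the chaperone BiP, had a log2 fold change of -0.12 (adjusted p = 0.16).

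Among other gene ontology terms, genes for mitochondrial proteins were higher in 104 (7.84%, against 16.9% of all genes) and lower in 212 (16.0%, near the 14.4% of all genes) of 1327, or 138 and 260 of 1338 without animal 210, with 119 lower under the block. Basement membrane proteins were higher in 11 (13.9%) and lower in 27 (34.2%) of 79, and synapse proteins higher in 99 (30.7%) and lower in 57 (17.7%) of 322. Without animal 210 these were 12 and 29, and 105 and 84.

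Synaptic and dendritic messages were partly higher. Genes of transmitter release were higher in 7 of 17 and lower in 1, or 9 and 1 without animal 210. The lower count was 0 with the block or without animal 192, 194 or 209, and 2 without animal 277. Cplx2, a complexin that clamps vesicle fusion, measured 1609, 1569, 1460, 1418 and 1434 CPM in input and 946, 852, 859, 1416 and 954 CPM in whole tissue, and rose by 0.58 ± 0.12 (adjusted p = 0.0041). Whole tissue 210 was level with the lowest input while the other whole tissue libraries lay well below. Snap25, a SNARE protein of the same machinery, had a log2 fold change of 0.13 (adjusted p = 0.21) and passed as higher without animal 210 (0.20, adjusted p = 0.017), and Kif5a, a kinesin motor of axons, fell by 0.42 ± 0.08 (adjusted p = 0.0018). Of 9 messages carried into dendrites, 3 were higher and 0 lower, and 6 were higher without animal 210, but 0, 0 and 1 without animal 192, 194 and 209. Camk2a, the calcium-dependent kinase of synapses, rose by 0.45 ± 0.13 (adjusted p = 0.019), a call lost without animal 192, 194 or 209 (adjusted p up to 0.090). Tubulin, actin and stathmin genes gave 2 lower and 0 higher of 13, a lower share near the 14.4% of all genes tested.

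By transcript class, long non-coding RNAs of RefSeq were higher in 61 of 373 tested (16.4%) and lower in 18 (4.83%), with a median of 0.11. Protein-coding genes were higher in 2229 of 13175 (16.9%) and lower in 1936 (14.7%), or in 1284 with the animal as a block. Without animal 210 the non-coding counts were 93 and 26 of 399. Rn45s, a row for precursor ribosomal RNA that poly(A) selection should mostly remove, fell by 1.92 ± 0.23 (adjusted p = 0.00036). It measured 1233, 1129, 1293, 1555 and 1710 CPM in input and 4514, 3778, 3617, 7499 and 6701 CPM in whole tissue, with every whole tissue library at over 2 times any input. Repeated copies of this locus make its count uncertain. Hosts of small nucleolar RNAs gave 0 higher and 1 lower of 10 (0 lower with the block and without animal 209 or 277), and histone cluster genes 1 higher and 0 lower of 14 (2 higher of 15 without animal 210). Both lists were called less often than all genes tested (16.9% higher and 14.4% lower).

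Genes with short transcripts were less often called higher. The tested genes were divided into 5 equal groups by the length of the longest GENCODE transcript (97.1% of them matched). The share higher in input was 8.30% in the shortest group and 22.8% in the longest, and the share lower 13.5% and 16.5%. Without animal 210 the shares were 13.2% and 23.2% higher, and 14.8% and 25.8% lower, so the longest group was then called more often both ways. From the lowest to the highest group by transcript GC content, the share higher went from 14.6% to 19.9%, and without animal 210 from 17.1% to 25.7%, while the share lower went from 15.3% to 15.0% and without animal 210 from 22.1% to 17.5%. The median log2 fold change lay within 0.05 of 0 in every one of these groups.

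**Figure D4:**
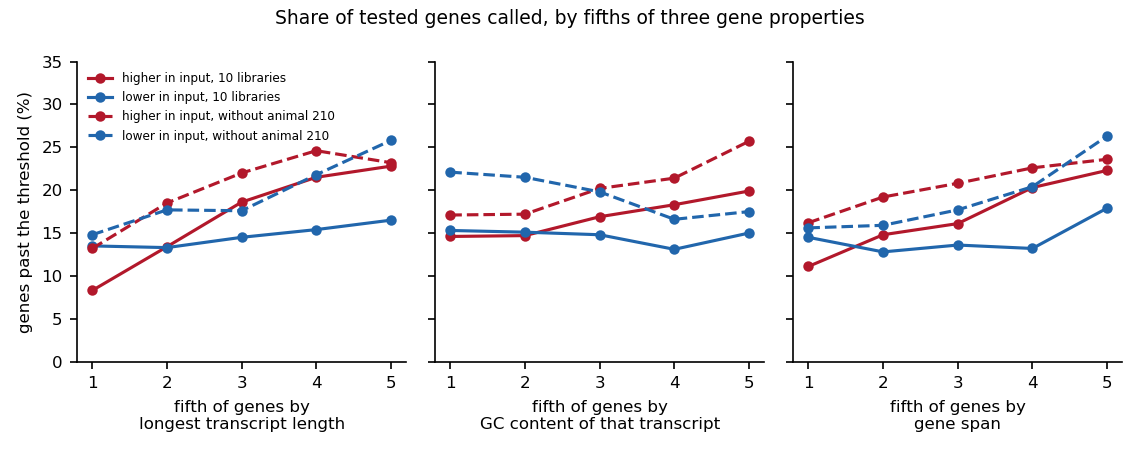
Percent of tested genes higher (red) or lower (blue) in input, in 5 equal groups of genes by longest transcript length, transcript GC content and gene span, from lowest (1) to highest (5), with all 10 libraries (solid) and without animal 210 (dashed). With all libraries the share higher goes from 8.30% in the shortest transcripts to 22.8% in the longest.

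Immediate early genes, which neurons switch on within minutes of activity or handling, were mostly higher in input. Of 19 tested, 15 were higher and 1 lower (median 0.61), and 16 and 1 without animal 210, and 10 higher without animal 209. Egr1, a zinc finger factor of this response, measured 308, 338, 322, 301 and 314 CPM in input and 146, 174, 142, 255 and 207 CPM in whole tissue. The groups did not overlap, and the log2 fold change was 0.79 ± 0.14 (adjusted p = 0.0013), or 0.94 without animal 210. Nr4a1, an inducible nuclear receptor, rose by 0.93 ± 0.16 (adjusted p = 0.0014). Junb, a partner in the AP-1 complex, rose by 0.57 ± 0.17 (adjusted p = 0.028), a call lost without animal 194 or 209 (adjusted p up to 0.13). Arc rose by 0.38 ± 0.13 (adjusted p = 0.044), a call lost without animal 192, 194 or 209 (adjusted p up to 0.18). Fos did not pass (0.31, adjusted p = 0.094) and Klf2 fell by 0.67 (adjusted p = 0.004), both named after their values were seen. Genes of striatum and of cortex and hippocampus were higher in the same inputs (medians of 1.48 and 0.55), and their part in the result was not tested.

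Other inducible programs gave fewer calls higher in input. Heat shock genes were lower in 4 of 11 and higher in 0, a lower share above the 14.4% of all genes tested. The lower count was 6 without animal 210, 2 with the animal as a block and 2 without animal 192 or 209. Hsp90aa1, the inducible cytosolic HSP90, fell by 0.19 (adjusted p = 0.015). Glucocorticoid-response genes gave 3 higher and 1 lower of 12, or 4 and 1 without animal 210 and 1 higher without animal 209. All genes tested gave 16.9% higher and 14.4% lower. Per1, a clock gene that glucocorticoids induce, rose by 0.36 ± 0.07 (adjusted p = 0.0024) and Tsc22d3, a leucine zipper protein, fell by 0.37 ± 0.09 (adjusted p = 0.0072). Of 7 interferon-response genes, edgeR called 0 in either direction, with 1 lower at an unadjusted p under 0.05. DESeq2 called 1 lower, and edgeR 2 lower with the block. Without animal 210 edgeR called 1 lower, Oasl2, an interferon-induced gene named after its values were seen (-0.76, adjusted p = 0.047).

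The 10 largest rises and falls were taken among genes called, with over 20 counts in all 10 libraries and 1 direction in all 5 animals. Of the rises, 6 belonged to the striatal or olfactory bulb lists (among them Adora2a, Drd1a, Cdhr1, Doc2g and Sp8, a transcription factor of interneurons). Sp8 rose by 1.67 ± 0.42 (adjusted p = 0.013), or 2.36 without animal 194, and the call was lost without animal 277 (adjusted p = 0.057). Abi3bp, a matrix protein, measured 13.5, 15.3, 14.6, 14.03 and 16.7 CPM in input and 3.53, 2.56, 3.30, 9.39 and 2.79 CPM in whole tissue, a log2 fold change of 2.03 ± 0.24 (adjusted p = 0.00015). Frmd7, a cytoskeletal regulator of neurite growth, rose by 2.25 ± 0.51 (adjusted p = 0.0075), or 2.85 without animal 210, and the call was lost without animal 209 (adjusted p = 0.054). Igfn1, an immunoglobulin and fibronectin domain protein, and Atp6ap1l, related to an accessory protein of the proton pump, rose by 1.83 and 1.66.

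Among the 10 largest falls were Myh11, Flt1 and Abcb1a of the vessels, Slc6a4 and Glra1 of the brainstem, and Rn45s. Irs4, an insulin receptor substrate expressed in hypothalamus, measured 7.64, 6.96, 9.05, 11.9 and 6.199 CPM in input and 21.4, 45.6, 27.2, 12.7 and 40.0 CPM in whole tissue, and fell by 1.86 ± 0.30 (adjusted p = 0.0013). Gch1, which makes the cofactor of monoamine synthesis, fell by 1.67 ± 0.19 (adjusted p = 0.00012). Chrna3, a nicotinic receptor subunit of habenula and autonomic neurons, fell by 1.64 ± 0.15 (adjusted p = 3.5e-05). Sspo, the glycoprotein that the subcommissural organ secretes, fell by 1.80 ± 0.36 (adjusted p = 0.0024).

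Whole tissue libraries varied more than inputs. The median over genes of the SD of log2 CPM was 0.109 in input and 0.180 in whole tissue, with the smaller SD in input for 78.5% of genes. Without animal 210 the medians were 0.109 and 0.123 and the share was 58.0%.

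The negative fraction, the supernatant that remained after the tagged ribosomes were pulled down, was compared with the same whole tissue libraries. In the negative fraction 2728 of 13693 genes tested were higher (19.9%) and 3154 lower (23.0%), against 16.9% and 14.4% in input. Without animal 210 it was 3636 higher (26.0%) and 3491 lower (25.0%) of 13978, in all 51.0% against 43.0% with it. Both comparisons share their whole tissue libraries, so they are given side by side only. Endothelial genes were lower in 30 of 32 in each, with medians of -1.12 in input and -1.14 in the negative fraction. Flt1 had log2 fold changes of -1.61 and -1.89, Mbp of -0.92 and -0.80, Adora2a of 3.02 and 3.09 and Meg3 of 1.05 and 0.98. Ribosomal protein genes were lower in 22 of 78 in input but in 1 of 78 in the negative fraction (median 0.03), and oxidative phosphorylation genes were higher in 0 of 83 in input and in 23 of 83 in the negative fraction (median 0.10). The difference between the fractions was not tested here.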

How the data were processed

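Libraries were made from poly(A) RNA with a directional kit and sequenced as paired reads. Alignment to mm10 and counting over RefSeq genes were done by the authors with Strand NGS. The deposited table gives estimated counts per gene, of which 82.8% of nonzero values were not whole, and they were rounded here. It also gives log2 values that the authors normalized with DESeq size factors and baseline-transformed, which were not used. The 454 rows that share a symbol were left out of gene lists. CPM is a count over the library total.

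Genes were tested where all libraries of 1 group or the other exceeded 20 counts, with edgeR 4.0.16 (TMM factors, robust quasi-likelihood fit, no animal term) in R 4.3.3. SE is the absolute log2 fold change over the square root of F. The fit was tested on simulated data. Named genes were the 10 largest rises and falls, the 5 largest in mean CPM each way, up to 4 most abundant tested members of each list, and Cldn5, Pecam1 and Flt1. Members and lists were chosen with earlier results of these data known. Study lists came from the study's supplement. Animal numbers pair the libraries by source mouse. Deviations of input and whole tissue from the same animal correlated at -0.183 to 0.097. Alternatives were DESeq2 1.42.0, other factors and filters, the animal as a block and each animal left out. Some genes that met the naming rule are not reported here.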

Additional observations from a re-analysis of the deposited data

Results flagged for a closer look

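In a group of 5 libraries, a value was singled out where its gap to the nearest other library exceeded 0.71 of the range of the group (Dixon's limit). Of 162 group values examined, 17 did, where chance gives about 1 in 20.

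Among the inputs, that of animal 210 was the highest for the pituitary and pineal list (gap 0.975 of the range, 363.3 CPM) and for the hypothalamic list (0.759, with 761.8 CPM against 384 to 475 CPM). Without Pomc, left out after its values were seen, the hypothalamic list came to 451 CPM in that input and 377 to 469 CPM in the others. The input of animal 277 was the lowest for the pericyte and smooth muscle list (0.895) and the highest for Kif5a (0.812, with 2563 CPM against 2420 to 2447 CPM). The input of animal 192 was the lowest for Sp8 (0.723, 11.9 CPM against 13.2 to 13.7 CPM).

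Among the whole tissue libraries, every value singled out was that of animal 210. It was the lowest for the endothelial list (0.769) and Kif5a (0.753). It was the highest for the study's neuronal list (0.762), the homeostatic microglial list (0.711, with 778 CPM against 535 to 605 CPM), the lymphocyte list (0.823), histone variants (0.737) and the glucocorticoid-response list (0.81). It was also the highest for Frmd7 (0.903), where its 12.7 CPM lay within the inputs, Abi3bp (0.858), Igfn1 (0.744), Atp6ap1l (0.877) and Cplx2 (0.819).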

How the results depend on the processing

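Genes higher in input numbered 1443 with the negative and positive fractions in the fit and 1410 with counts thinned to the lowest total, and ranged from 1249 to 3025 over the libraries or animals left out. Genes lower numbered 1309 with the animal as a replicate block, 1264 when thinned and 1237 with the minimum fold change of the study's methods required as well, and ranged from 1185 to 2928 over the libraries or animals left out. The highest counts were those without the whole tissue library of animal 210 and the lowest those without animal 209; the cause was not tested. Both counts stayed within 1.5 times under DESeq2 (2381 and 2385), RLE, upper-quartile or no scaling factors, and other count filters.

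Of 195 named genes, the block ended 15 calls, and those that bear on a result stand beside it. Pomc turned from 2.00 to -1.59 without animal 210, -1.65 with the replicate block and animal 210 left out, -1.99 in animals 192 and 194 alone and -1.37 in animals 209 and 277 alone, and was 2.34 without animal 277. In animals 192 and 194 alone, a choice made after seeing the data, the log2 fold change turned to 0.37 for C1qb, 0.29 for Rorb and 0.26 for Mt1, none of them called with all 10 libraries, and the median of tubulin, actin and stathmin genes turned to 0.034. The border macrophage median turned to -0.0092 when thinned. Genes under 20 counts were not tested, and the low depth of 1 whole tissue library limits those above it.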

Other observations

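Genes of secreted neuropeptides and dense-core vesicles, measured in the same libraries, split by gene. Of 15 tested, 3 were higher and 4 lower, with a median log2 fold change of 0.05, or 5 higher and 3 lower without animal 210. The share higher with all 10 libraries was near the 16.9% of all genes tested, of which 14.4% were lower. The lower count was 2 without animal 209. Chgb, the granule protein chromogranin B, rose by 0.46 ± 0.10 (edgeR adjusted p = 0.0042) and was higher in all 5 animals, most in the input of animal 210 (890 CPM against 598 to 647 CPM in the other inputs). Scg2, secretogranin II of the same granules, fell by 0.48 ± 0.10 (adjusted p = 0.0026). Chga, chromogranin A, fell by 0.27 ± 0.07 (adjusted p = 0.01), a call lost without animal 209. Vgf, a neuropeptide precursor, measured 234 to 322 CPM in input and 249 to 323 CPM in whole tissue (log2 fold change 0.00, adjusted p = 0.98).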
